A study of Mus musculus with 46 samples.

Results

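The 35 genes described here act in fatty acid oxidation and ketone synthesis in the liver. They were chosen by name, as Ppara and enzymes, carriers and transporters of mitochondrial and peroxisomal fatty acid breakdown and ketone production, and all 35 were found among the 21671 genes of the deposited mouse table. Liver draws energy from fat by loading fatty acids onto coenzyme A and shortening the chains by beta-oxidation. Long chains enter mitochondria on carnitine, while very long and dicarboxylic chains are handled in peroxisomes, and the acetyl groups set free can leave the liver as ketone bodies. Ppara is the nuclear receptor that, bound by fatty acids and paired with a retinoid X receptor, switches on much of this pathway during fasting.

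Total RNA was sequenced, after removal of ribosomal RNA, from whole pieces of liver or liver tumour of FVB mice. MycVD tumours (11 libraries from 10 animal IDs) carried tet-MycVD, the V394D form of Myc, a change known for weakening its contact with the partner protein Miz1. Myc-off tumours (8 libraries from 3 IDs) carried wild-type tet-Myc that had been switched off by 16 h of food with doxycycline. Myc tumours (16 libraries from 7 IDs) carried the same tet-Myc, expressed when collected. Control livers (11 libraries from 11 IDs) are labelled as control and as normal liver. In all 3 tumour groups Myc was driven by LAPtTA, a transactivator active in liver, and was induced in utero, so the transgene was on from before birth. Several tumours share an animal ID, taken here as the animal, and were averaged, so each n counts IDs. Whether control livers carried a transgene, ate doxycycline or matched the tumours in age was not given in the sources used here.

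Values are eRPKM, reads per kilobase of exon and megaread counted in the genes of the table. Depth ran between 3.25 and 12.6 megareads per library, with a median of 7.96. Group medians were 7.81 in MycVD, 7.14 in Myc-off, 9.65 in Myc and 7.32 in control libraries, so depth differed with group. Odc1, an established Myc target encoding ornithine decarboxylase, was at 92.1 to 117 eRPKM in MycVD libraries, 48.6 to 65.9 in Myc-off libraries, 84.4 to 121 in Myc libraries and 49.8 to 70.6 in control libraries. The mouse Myc row overlapped between all 4 groups, at 1.46 to 18.2 eRPKM over all of them, and whether it counts transgene reads is not stated in the labels. A low Gapdh level set 8 libraries apart: these (2 MycVD, 5 Myc, 1 control) had 15 to 27.1 eRPKM, against 35.2 to 99.2 in the others. In the 4 Myc tumour IDs that hold both kinds, the low-Gapdh libraries had more Hsd17b4, by a mean log2 difference of 0.58 between 0.46 and 0.70, and less Ppara, by a mean of -0.43 between -0.91 and -0.08. The counts over all 35 genes are therefore also given without those 8 libraries, as are some counts by role or gene list. Other counts are from all libraries, and some of them differ without those 8. Myc-off IDs carry the highest numbers of all and MycVD IDs are numbered above Myc IDs, while control IDs start beside the Myc IDs and run past the MycVD IDs. What ID order stands for is not stated in the labels. Of the 11 hepatocyte markers in the table none was at 0 throughout any group. A difference is called at a limma adjusted p under 0.05 over 14566 genes, and is given as the mean log2(eRPKM + 0.5) of the group named first minus that of the group named second, a scale that understates changes of genes at low levels. Each ± after a log2 difference is its SE, and each ± after a level is an SD over IDs.

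RefSeq promoter windows, 250 bases before to 50 after each start (build GRCm38.p6), were found for 28 of the 35 genes. The response element of Ppara is a direct repeat of AGGTCA spaced by 1 base. A gene counts here if any of its windows holds a match, while percentages are per promoter window, so the counts and percentages are not on equal terms. The exact repeat AGGTCANAGGTCA was in 0 of the 28 genes, against 0.0396% of 32851 promoters searched on both strands. The looser repeat AGGNCANAGGNCA was in 1 of the 28 genes, Fabp1, against 0.381% of all promoters. The E-box CACGTG, which Myc binds with Max, was also in 1 of the 28 genes, Acot4, against 7.15% of all promoters. A single AGGTCA, which overlaps the repeats and was added after the data were seen, was in 7 of the 28 genes (Acadm, Acadvl, Acot3, Acot4, Cpt1a, Fabp1 and Slc27a2), against 16.3% of all promoters. The Fabp1 and Acot4 windows are shown as the members that hold the repeat and the E-box, read on the strand of the gene, with the match in capitals. The Fabp1 window is chr6:71199629-71199928 on the plus strand, with the repeat on the opposite strand. The Acot4 window is chr12:84038129-84038428 on the plus strand. A match describes the letters and is not shown to be a bound site.
Fabp1: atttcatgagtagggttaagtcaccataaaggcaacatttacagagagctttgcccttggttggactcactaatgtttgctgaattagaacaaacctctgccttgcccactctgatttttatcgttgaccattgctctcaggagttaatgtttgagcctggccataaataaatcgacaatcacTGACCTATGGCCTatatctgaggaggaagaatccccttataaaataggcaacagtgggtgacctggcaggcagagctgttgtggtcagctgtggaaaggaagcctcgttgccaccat
Acot4: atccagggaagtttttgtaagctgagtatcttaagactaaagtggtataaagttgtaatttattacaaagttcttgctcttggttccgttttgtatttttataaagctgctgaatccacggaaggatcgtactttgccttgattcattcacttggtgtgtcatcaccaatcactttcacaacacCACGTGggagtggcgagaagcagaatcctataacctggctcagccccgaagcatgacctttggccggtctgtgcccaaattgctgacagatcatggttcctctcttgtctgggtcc

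In Myc tumours against control livers, fatty acid oxidation genes were lower in nearly every step of the pathway. Of the 35 genes, 31 fell, 1 rose and 3 were not called, with a median log2 difference of -1.0, against 0.28 over all genes. Over all genes tested 29.7% fell and 50.4% rose in this comparison, or 4321 and 7334 genes. Quantile normalisation gave 5442 and 6082, with the median of all genes at 0.07 in place of 0.28, and 28 members that fell. ID means did not overlap for 18 genes that were lower in Myc tumours, against 18.7% of all genes. Without the low-Gapdh libraries 31 fell and 1 rose, and against only the 6 control IDs numbered beside the Myc tumours 30 fell and 1 rose, with a median of -0.92. Ppara itself had 15, 18.2 and 24.7 eRPKM (lowest, median and highest ID) in Myc tumours and 68.9, 97.7 and 110 in control livers. All 7 Myc tumour IDs lay below all 11 controls, a log2 difference of -2.21 ± 0.11 (limma adjusted p = 1.3e-17). Ppargc1a, a coactivator of Ppara and of mitochondrial genes, averaged 9.54 ± 1.49 eRPKM in Myc tumours (n = 7) and 8.73 ± 3.18 in control livers (n = 11) and was not called (0.19 ± 0.30, adjusted p = 0.57).

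**Figure D1:**
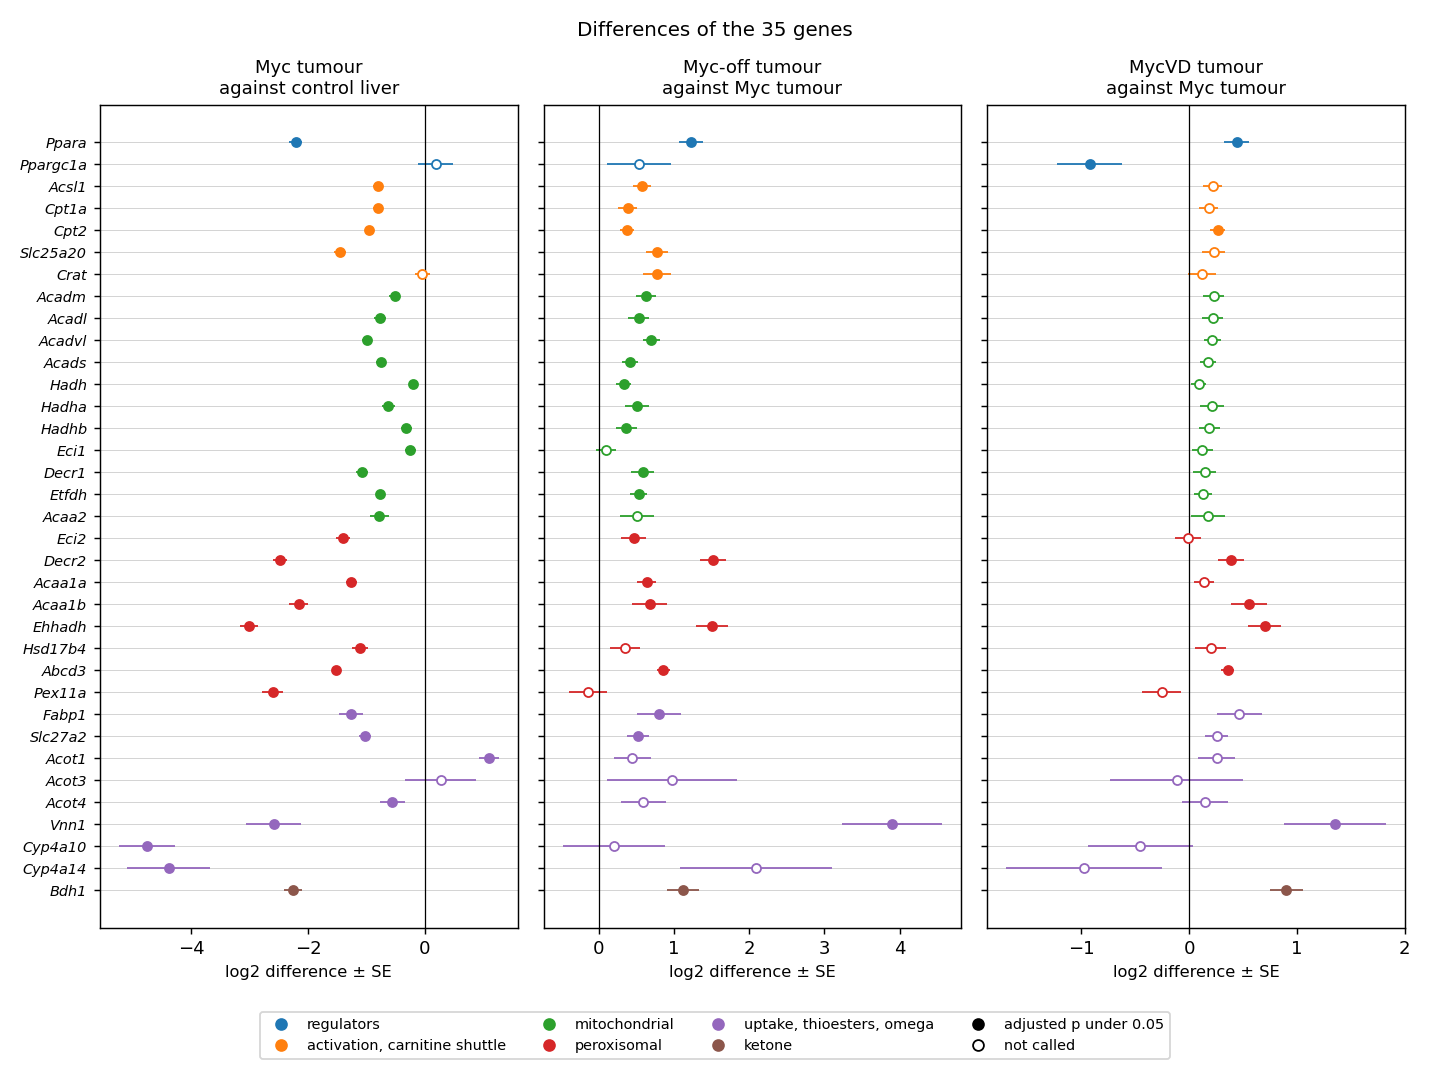
Log2 difference of each of the 35 genes with its SE (x axes, each with its own scale), by role (colour), in Myc tumours against control livers, Myc-off against Myc tumours and MycVD against Myc tumours. Filled points were called at adjusted p under 0.05: 31 lower and 1 higher in the left panel, 25 higher in the middle, 8 higher and 1 lower in the right.

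Of the 5 genes that activate fatty acids and bring them into mitochondria, 4 fell. Cpt1a, the carnitine palmitoyltransferase that controls entry, had 38.9, 52.6 and 62.6 eRPKM in Myc tumours and 77.5, 89.4 and 101 in control livers (lowest, median and highest ID). The groups did not overlap, at -0.80 ± 0.09 (adjusted p = 8.7e-10). Slc25a20, the carrier that exchanges acylcarnitine for carnitine across the inner membrane, fell by 1.45 on the log2 scale, to 23.0 ± 4.05 eRPKM in Myc tumours, against 63.7 ± 8.50 in control livers. Cpt2, which returns the chain to coenzyme A in the matrix, fell by 0.95 on the log2 scale, and Acsl1, which activates long chains, fell by 0.81. Crat, which moves short acyl groups onto carnitine, was not called, at 19.3 ± 1.15 eRPKM in Myc tumours and 20.6 ± 5.92 in control livers.

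All 11 mitochondrial beta-oxidation genes fell. Their means in Myc tumours were between 47.3% (Decr1) and 86.3% (Hadh) of the control mean, with a median of 58.9%. The acyl-CoA dehydrogenases for very long, long, medium and short chains fell by 1.0 (Acadvl), 0.77 (Acadl), 0.52 (Acadm) and 0.75 (Acads) on the log2 scale. Acadm had 63.3, 71.5 and 93.0 eRPKM in Myc tumours and 74.0, 105 and 147 in control livers, so its groups overlapped. The trifunctional protein subunits Hadha and Hadhb, which carry out the later steps on long chains, fell by 0.63 and 0.31, and Hadh, the short-chain dehydrogenase, by 0.20. Decr1 and Eci1, which prepare unsaturated chains, fell by 1.07 and 0.25, Etfdh, which passes electrons on to the respiratory chain, by 0.76, and the thiolase Acaa2 by 0.78. The smallest falls depended on scaling: after quantile normalisation Hadhb and Eci1 were at 0.06 each, Acadm was at -0.07 and Hadh at -0.15, none called. Hadhb and Eci1 thus changed sign there. With depth as a covariate Hadh (-0.08, adjusted p = 0.45), Hadhb (-0.14, adjusted p = 0.3) and Eci1 (-0.13, adjusted p = 0.36) were not called either. The call of Eci1 was also lost with the ceiling correction, with every library as its own sample, against only the 6 controls numbered beside the Myc tumours, and without ID126947 or ID130395. Of 50-base stretches of the Hadhb transcript 62.4% occur in other annotated genes, mostly in the predicted gene Gm13910.

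The 8 peroxisomal genes all fell by at least 2-fold, against 13% of all genes, with 7 showing no overlap. Their levels in Myc tumours were between 12.6% (Ehhadh) and 45.8% (Hsd17b4) of the control mean, with a median of 28.5%, so each was below the lowest mitochondrial gene on this measure. Ehhadh, the bifunctional enzyme that processes dicarboxylic chains and a classical Ppara target, had 9.15, 13.8 and 23.9 eRPKM in Myc tumours and 101, 125 and 133 in control livers. That is 8.07-fold lower in Myc tumours (-3.01 ± 0.15, adjusted p = 7e-18). Pex11a, which promotes peroxisome division, fell to 4.49 ± 1.05 eRPKM in Myc tumours, against 29.4 ± 3.82 in control livers. Decr2, the peroxisomal dienoyl-CoA reductase, had 18.3 ± 2.13 eRPKM in Myc tumours and 104 ± 7.87 in control livers, and the highest Myc tumour ID was at 21.5. The thiolases Acaa1b and Acaa1a fell by 2.16 and 1.26, the import transporter Abcd3 by 1.52, Eci2 by 1.40 and Hsd17b4 by 1.11. Acaa1a and Acaa1b share 34.0% and 35.5% of their 50-base stretches with each other, so reads may be split between them.

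Among genes of uptake, binding, thioester cleavage and omega-oxidation, 6 fell and 1 rose. Fabp1, the abundant liver fatty acid binding protein, fell by 1.26 and Slc27a2, a transporter and activator of very long chains, by 1.02. Cyp4a10 and Cyp4a14, which hydroxylate the far end of fatty acids and are classical Ppara targets, had the largest falls. Cyp4a10 had 0.136, 0.752 and 4.30 eRPKM in Myc tumours and 4.02, 61.4 and 74.4 in control livers (-4.76 ± 0.48), and the highest Myc tumour ID lay just above the lowest control. Of its 50-base stretches 30.5% occur in other genes, 25% in Cyp4a32, which averaged 0.815% of the control mean in Myc tumours. That ID, ID125324, had 15 eRPKM in tumour D and 0.335 to 1.53 in its other 3 tumours. Cyp4a14 had 0, 1.21 and 8.49 eRPKM in Myc tumours and 3.22, 62.9 and 104 in control livers (-4.39 ± 0.71). It had no read in 5 libraries of Myc or MycVD tumours, where a count of 0 allows up to 0.104 to 0.193 eRPKM (3 reads, counting error only). Vnn1, a pantetheinase that releases cysteamine and is induced by Ppara, had 0.184, 1.40 and 2.54 eRPKM in Myc tumours and 2.46, 10.0 and 23.5 in control livers (-2.59 ± 0.47). Acot1, a cytosolic thioesterase that frees fatty acids from coenzyme A, was the member that rose: it had 22.1, 24.7 and 26.5 eRPKM in Myc tumours and 6.33, 11.2 and 19.2 in control livers, without overlap (1.1 ± 0.17, adjusted p = 6.6e-07). Of its 50-base stretches 33.2% occur in other genes, 23.9% in Acot2, which rose as well (1.02, adjusted p = 5.8e-05). Acot4 fell by 0.56 (adjusted p = 0.017), a call lost with depth as a covariate (-0.62, adjusted p = 0.061). Acot3 was not called (0.27 ± 0.61, adjusted p = 0.68). On the eRPKM scale Acot3 averaged lower in Myc tumours, at 21.1 ± 1.77, against 34.1 ± 29.2 in control livers, where IDs ran from 0.540 to 75.4.

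Bdh1, which makes 3-hydroxybutyrate, the main circulating ketone body, had 12.6, 18.0 and 27.9 eRPKM in Myc tumours and 76.8, 89.0 and 103 in control livers. It was 4.78-fold lower in Myc tumours, without overlap (-2.26 ± 0.15, adjusted p = 1.1e-14). Markers of hepatocytes moved with these genes. All 11 hepatocyte markers tested fell in Myc tumours, with a median of -1.02, and their summed level ran between 650 and 970 eRPKM in Myc tumours and between 1227 and 2048 in control livers. In these bulk samples fewer cells of a type and less RNA per cell cannot be told apart, and the part of hepatocyte content in the falls was not tested.

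**Figure D2:**
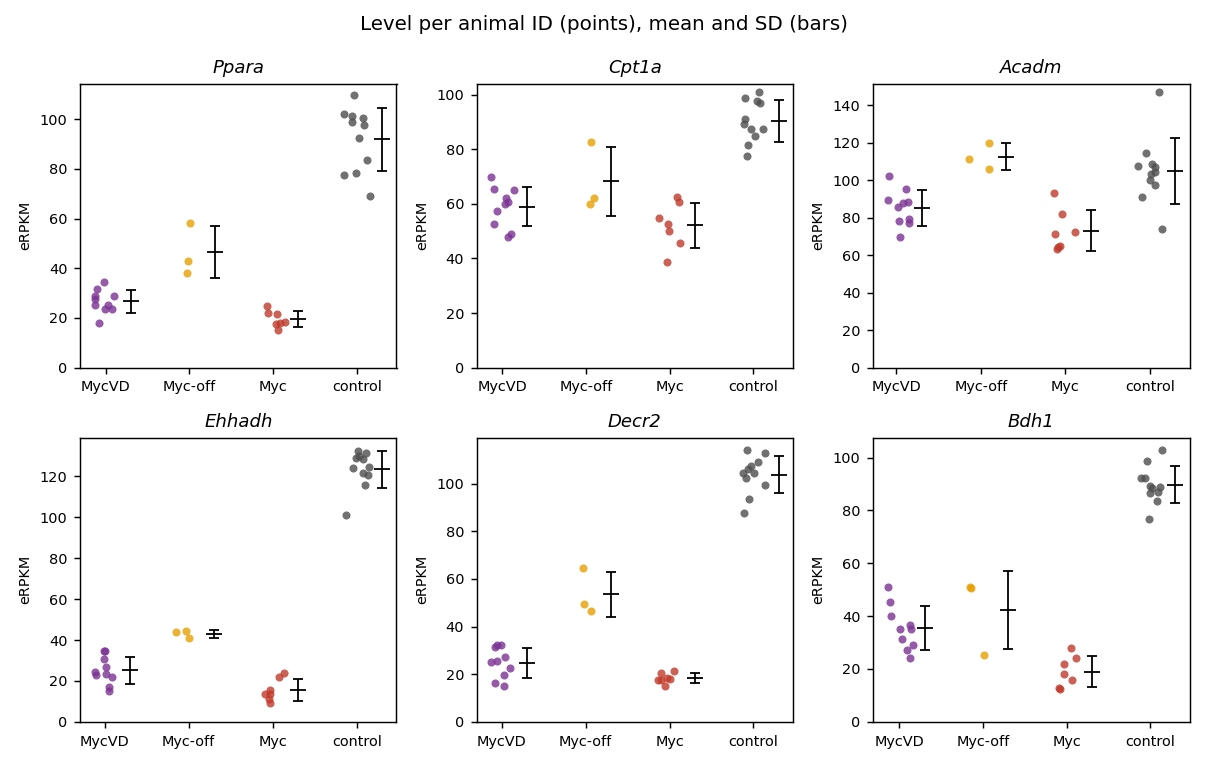
Level (eRPKM, y axes starting at 0) of 6 genes in each animal ID (points), with group mean and SD (bars), in MycVD tumours (10 IDs), Myc-off tumours (3), Myc tumours (7) and control livers (11). For Ppara, Ehhadh and Decr2 every Myc-off ID lies above every Myc ID and below every control.

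After 16 h of doxycycline food to switch off tet-Myc, most of these genes were higher than in Myc tumours. Switch-off, doxycycline food and a separate range of ID numbers coincide in Myc-off tumours, so their parts cannot be told apart. In Myc-off against Myc tumours 25 of the 35 rose and 0 fell, with a median log2 difference of 0.57, against 0.00 over all genes. Over all genes tested 22.8% rose and 28% fell. Of the 10 that were not called, Pex11a was the one with a negative estimate. Myc tumours also enter the comparison with control livers, so the 2 sets of differences are not independent. ID means did not overlap for 19 genes that were higher in Myc-off tumours, against 19.6% of all genes. Without the low-Gapdh libraries 27 rose, Acaa2 and Hsd17b4 in addition, and 0 fell, and with depth as a covariate 16 rose. Of all genes 3621 rose and 4391 fell without those libraries. With depth as a covariate 3440 rose and 3260 fell, against 3315 and 4072 without it. Ppara had 38.2, 43.0 and 58.3 eRPKM in the 3 Myc-off IDs and 15, 18.2 and 24.7 (lowest, median and highest ID) in Myc tumours. The groups did not overlap (1.22 ± 0.16, adjusted p = 1.7e-07). Markers moved in this comparison too: 9 of 11 hepatocyte markers rose (10 without the low-Gapdh libraries), with a median of 0.78, against 0.57 for the 35 genes. The hepatocyte marker sums were 1324 to 1424 eRPKM in Myc-off tumours, against 650 to 970 in Myc tumours. All 6 cholangiocyte markers tested also rose (5 without the low-Gapdh libraries), to a sum of 50.8 to 147 in Myc-off tumours, against 18.2 to 42.6 in Myc tumours. Of T and B cell markers 2 of 5 rose. Of endothelial markers 2 of 8 rose (1 without the low-Gapdh libraries), near the 22.8% of all genes. Their part in the rises was not tested.

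All 5 carnitine shuttle genes rose. Slc25a20 had 39.9, 39.5 and 38.2 eRPKM in the Myc-off IDs and 16.8, 22.4 and 28.2 in Myc tumours (0.77 ± 0.15). Crat, which had not differed from controls by the test in Myc tumours, had 34.2, 32.3 and 33.4 eRPKM in Myc-off IDs and 18.0, 19.0 and 20.9 in Myc tumours (0.77 ± 0.18, adjusted p = 0.00064). For both, the Myc-off ID means lay close together and clear of every Myc tumour ID. The log2 SD of Slc25a20 and Crat was 0.03 and 0.04 between Myc-off IDs, but 0.18 and 0.17 between tumours within IDs. Cpt1a had 59.9, 82.6 and 62.1 eRPKM in Myc-off IDs and 38.9, 52.6 and 62.6 in Myc tumours, so it overlapped. Its rise of 0.38 ± 0.12 (adjusted p = 0.01) rested on ID151964, without which it was 0.24 (adjusted p = 0.17), and was 0.22 with depth as a covariate (adjusted p = 0.2).

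Of the 11 mitochondrial genes 9 rose, the most by 0.70 ± 0.11 (Acadvl) and the least by 0.33 ± 0.10 (Hadh), and Eci1 (0.09, adjusted p = 0.6) and Acaa2 (0.50, adjusted p = 0.061) were not called. Acadm had 120, 106 and 112 eRPKM in Myc-off IDs, all above the 93.0 of the highest Myc tumour ID. Of the 8 peroxisomal genes 6 rose. Decr2 had 49.6, 64.5 and 46.7 eRPKM in Myc-off IDs and 14.9, 17.9 and 21.5 in Myc tumours (1.52 ± 0.17, adjusted p = 9.3e-09). Ehhadh had 44.6, 43.9 and 40.9 eRPKM in Myc-off IDs and 9.15, 13.8 and 23.9 in Myc tumours, 2.84-fold higher in Myc-off tumours (1.51 ± 0.21). Both were thus well clear of the Myc tumours. Abcd3 rose by 0.86 and Pex11a was not called: it had 3.14, 7.16 and 2.59 eRPKM in Myc-off IDs and averaged 4.49 in Myc tumours (-0.15 ± 0.26). Some rises lost their call when 1 ID was left out, with little change in size for most. Fabp1 (0.80) was 0.75 without ID150584 and 0.81 without ID153344, and Acaa1b (0.68) was 0.61 without ID150584 and 0.64 without ID151964. Fabp1 also lost its call without the library of lowest depth (0.66, adjusted p = 0.06). Eci2 (0.46) was 0.39 without Myc tumour ID130395, 0.44 without ID151964 and 0.46 without ID153344. Hadhb (0.37) was 0.33 without ID153344, and Hadh (0.33) was 0.25 without ID150584. Hadhb was not called after quantile normalisation (0.22, adjusted p = 0.066) or with the ceiling correction (0.32, adjusted p = 0.073). With depth as a covariate these 5 were not called either, at 0.42 for Fabp1, 0.23 for Acaa1b, 0.34 for Eci2, 0.19 for Hadhb and 0.20 for Hadh, nor were Acadl (0.39), Hadha (0.36) and Slc27a2 (0.18).

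Vnn1 had the largest rise of the 35. It had 7.30, 31.5 and 58.6 eRPKM in Myc-off IDs and 0.184, 1.40 and 2.54 in Myc tumours, without overlap (3.90 ± 0.67, adjusted p = 1.2e-05). The 8 Myc-off tumours ran from 4.84 to 79.8 eRPKM, with 3 of ID153344 at 40.0 to 79.8. Cyp4a10 was not called and was low in both groups, at 1.18 ± 0.545 in Myc-off tumours (n = 3) and 1.30 ± 1.48 in Myc tumours (n = 7). Cyp4a14 reached 101 eRPKM in tumour B of ID151964, against 5.37 in tumour A of the same ID and 0.274 to 6.25 in the other 6 Myc-off tumours, and was not called (2.09 ± 1.01, adjusted p = 0.085). Acot1 had 37.3, 27.5 and 36.2 eRPKM in Myc-off IDs and 22.1 to 26.5 in Myc tumours, clear of them but not called (0.45 ± 0.24, adjusted p = 0.12). Bdh1 had 25.1, 51.1 and 50.8 eRPKM in Myc-off IDs and 12.6, 18.0 and 27.9 in Myc tumours, overlapping through ID150584 (1.12 ± 0.21, adjusted p = 6.4e-05).

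**Figure D3:**
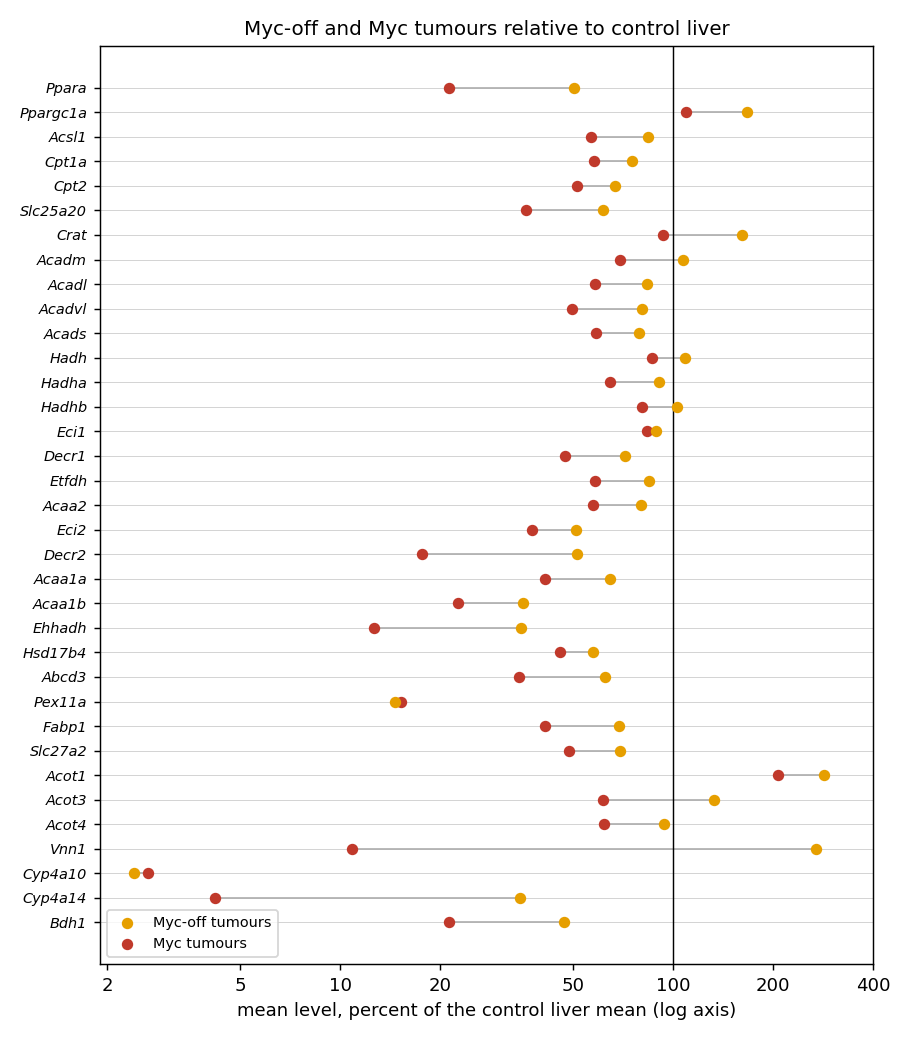
Mean level of each of the 35 genes in Myc-off and Myc tumours as a percentage of the control liver mean (log axis; vertical line at 100%). Mitochondrial genes had a median of 84.9% in Myc-off tumours and 58.9% in Myc tumours, and peroxisomal genes 51.4% in Myc-off tumours and 28.5% in Myc tumours.

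Against control livers, Myc-off tumours still had 19 of the 35 genes lower and 2 higher, with 14 not called and a median of -0.41, against 0.17 over all genes. Over all genes tested 20.9% fell and 37.3% rose, or 3049 and 5439 genes. Quantile normalisation gave 4286 and 4181, with 15 members lower and 5 higher. ID means did not overlap for 13 genes that were lower and 2 that were higher in Myc-off tumours, against 13.7% and 26.4% of all genes. Without the low-Gapdh libraries 18 fell, Cyp4a14 no longer among them, and 2 rose. Controls and Myc-off tumours enter other comparisons here too, so these counts are not independent of them. Roles differed in how many genes were called: all 8 peroxisomal genes were lower than in control livers, and 3 of 11 mitochondrial genes (Acadvl, Acads and Decr1). After quantile normalisation those 3 were no longer called, at -0.07 (Acadvl), -0.09 (Acads) and -0.29 (Decr1), and neither was Cpt1a (-0.16). Leaving out ID153344 ended the calls of Acadvl and Acads, and leaving out ID151964 that of Decr1. Hepatocyte markers were lower in 4 of 11 (median -0.27). Their sums were 1324 to 1424 eRPKM in Myc-off tumours and 1227 to 2048 in control livers. Endothelial markers were lower in 5 of 8 (median -1.21) and stellate cell markers in 4 of 8 with 1 higher. Cholangiocyte markers were higher in 4 of 6 (median 1.40), erythroid markers in 5 of 6 (1.02), T and B cell markers in 3 of 5 and macrophage markers in 3 of 8 with 1 lower. The macrophage markers that rose were near the 37.3% of all genes. Their part in these differences was not tested. Cyp4a10 was furthest below control livers of the 35 genes, at 0.651 to 1.74 eRPKM in Myc-off tumours and 4.02 to 74.4 in control livers, or 2.41% of the control mean, without overlap (-4.56 ± 0.64, adjusted p = 4.6e-07). Pex11a was the lowest of the peroxisomal genes, at 2.59 to 7.16 eRPKM in Myc-off tumours and 23.3 to 36.8 in control livers (-2.75 ± 0.24, adjusted p = 4.3e-11). Ehhadh averaged 34.9% of the control mean (-1.51 ± 0.20), Ppara 50.6% (-0.98 ± 0.15) and Bdh1 47.2% (-1.14 ± 0.20), each without overlap. Cpt1a fell by 0.41 (adjusted p = 0.0032), with overlap. The 2 that rose were Acot1, at 33.6 ± 5.39 eRPKM in Myc-off tumours and 11.8 ± 4.44 in control livers (1.55 ± 0.23), and Crat, at 33.3 ± 0.984 in Myc-off tumours and 20.6 ± 5.92 in control livers (0.73 ± 0.17). The fall of Cyp4a14 (-2.29, adjusted p = 0.04) was lost when any of 10 of the 14 IDs was left out, and was -1.12 without ID150584 and -3.70 without ID151964.

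In MycVD against Myc tumours 8 of the 35 genes rose and 1 fell, with a median log2 difference of 0.20, against -0.05 over all genes. Over all genes tested 6.14% rose and 9.69% fell, or 895 and 1411 genes, and quantile normalisation gave 1143 and 1123. ID means did not overlap for 1 gene that was higher in MycVD tumours, Abcd3, against 0.783% of all genes. Without the low-Gapdh libraries 11 rose and 2 fell: Acsl1, Acadm, Acads and Hadha were called higher and Pex11a lower, and Vnn1 was no longer called (1.37, adjusted p = 0.054). Calls over all genes grew there too, to 1590 that rose and 2385 that fell, so the added calls are not particular to these 35 genes. With depth as a covariate 3 rose and 0 fell, where 588 of all genes rose and 371 fell. Leaving out single IDs gave 5 (without Myc tumour ID128992 or ID130395) to 12 (without Myc tumour ID125324) that rose. Ppara had 18.1, 26.5 and 34.4 eRPKM in MycVD tumours and 15, 18.2 and 24.7 in Myc tumours (0.44 ± 0.11, adjusted p = 0.0089), and was 0.31 with depth as a covariate (adjusted p = 0.15). Ehhadh had 15.3, 24.0 and 34.8 eRPKM in MycVD tumours and 9.15, 13.8 and 23.9 in Myc tumours (0.70 ± 0.15, adjusted p = 0.002). Bdh1 had 24.1, 35.1 and 50.9 eRPKM in MycVD tumours and 12.6, 18.0 and 27.9 in Myc tumours (0.90 ± 0.15, adjusted p = 0.00015). These 3 overlapped, with the median MycVD ID above the highest Myc tumour ID. Abcd3 had 46.4 to 57.0 eRPKM in MycVD tumours and 36.1 to 43.7 in Myc tumours.

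The other rises in MycVD tumours were Acaa1b (0.55), Decr2 (0.39), Cpt2 (0.26) and Vnn1 (1.35, adjusted p = 0.05). The call of Vnn1 was lost when any of 14 of the 17 IDs was left out, those of Cpt2 (0.20), Acaa1b (0.27, adjusted p = 0.39) and Decr2 (0.25, adjusted p = 0.3) with depth as a covariate, that of Acaa1b without Myc tumour ID128992 or ID130395, and that of Decr2 when any of 5 IDs was left out. None of the 11 mitochondrial genes was called with all libraries, against 3 without the low-Gapdh libraries, with log2 differences between 0.09 (Hadh) and 0.23 (Acadm), and Cpt1a was not called (0.18 ± 0.09, adjusted p = 0.16). Ppargc1a was the gene that fell, to 5.73 ± 3.53 eRPKM in MycVD tumours, against 9.54 ± 1.49 in Myc tumours (-0.92 ± 0.30, adjusted p = 0.036). MycVD IDs spread from 1.63 to 11.8 eRPKM, spanning the range of the Myc tumours, and the call was lost when any of 8 of the 17 IDs was left out, after quantile normalisation (-0.80) and with depth as a covariate (-0.72). Hepatocyte markers were higher in 6 of 11, with a median of 0.34, against 0.20 for the 35 genes. Their sums were 837 to 1205 eRPKM in MycVD tumours and 650 to 970 in Myc tumours. Macrophage markers were lower in 3 of 8 (median -0.65, sums of 113 to 195 eRPKM in MycVD tumours and 182 to 220 in Myc tumours), endothelial markers in 2 of 8 (median -0.46), and cholangiocyte markers were higher in 1 of 6. Without the low-Gapdh libraries hepatocyte markers were higher in 7 of 11. Lower were then 1 of 8 endothelial, 2 of 8 stellate cell and 1 of 6 erythroid markers. The part of these markers was not tested.

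Against control livers, MycVD tumours had 29 of the 35 genes lower and 1 higher, with a median of -0.77, against 0.22 over all genes. Over all genes tested 31.1% fell and 49.2% rose, or 4528 and 7161 genes, and quantile normalisation gave 5564 and 6080, with 27 members that fell. ID means did not overlap for 18 genes that were lower, against 14.7% of all genes, and 28 fell without the low-Gapdh libraries, Acot4 no longer among them. Both groups also enter other comparisons above. Ppara had 18.1 to 34.4 eRPKM in MycVD tumours and 68.9 to 110 in control livers (-1.77 ± 0.10). Ehhadh fell by 2.31, Bdh1 by 1.36 and Cpt1a by 0.62 on the log2 scale, each without overlap. Cyp4a10 and Cyp4a14 were at most 2.45 and 1.93 eRPKM in every MycVD ID, below every control. Hadh, Hadhb, Eci1, Crat and Acot3 were not called, and Acot1 rose (1.35 ± 0.15). After quantile normalisation Acadm turned to 0.03 (adjusted p = 0.57), against -0.29 before it. The fall of Acot4 (-0.41, adjusted p = 0.049) was lost when any of 12 of the 21 IDs was left out. All 11 hepatocyte markers fell here too, with a median of -0.65.

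Among control livers, 4 of these genes varied by an SD over 1 on the log2 scale. The median SD between IDs was 0.213 on the log2 scale over the 35 genes in control livers. ID128988, ID128990 and ID141041 were lowest in Cyp4a10 (4.02, 26.6 and 8.98 eRPKM), Cyp4a14 (3.22, 13.8 and 3.30) and Vnn1 (2.48, 3.66 and 2.46). The other 8 controls had 45.5 to 74.4 eRPKM of Cyp4a10, 55.2 to 104 of Cyp4a14 and 7.09 to 23.5 of Vnn1. Acot3, a peroxisomal thioesterase, divided controls by another line. The 5 control IDs with Xist above 10 eRPKM had 51.1 to 75.4 eRPKM of Acot3 and the 6 with less Xist had 0.540 to 37.8, without overlap, and Acot4 had 51.9 to 77.8 in the 5 with more Xist and 18.7 to 49.6 in the 6 with less. The labels give no sex, and this division was found after the data were seen. Cyp4a12a, another omega-hydroxylase, ran the other way, at 2.42 to 11.0 eRPKM in controls with Xist above 10 and 66.5 to 105 in the others. In Myc tumours Acot3 was within 18.9 to 23.5 eRPKM whichever the Xist level. With sex read from Xist as a covariate, no member count of any comparison moved by more than 1.5 times.

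**Figure D4:**
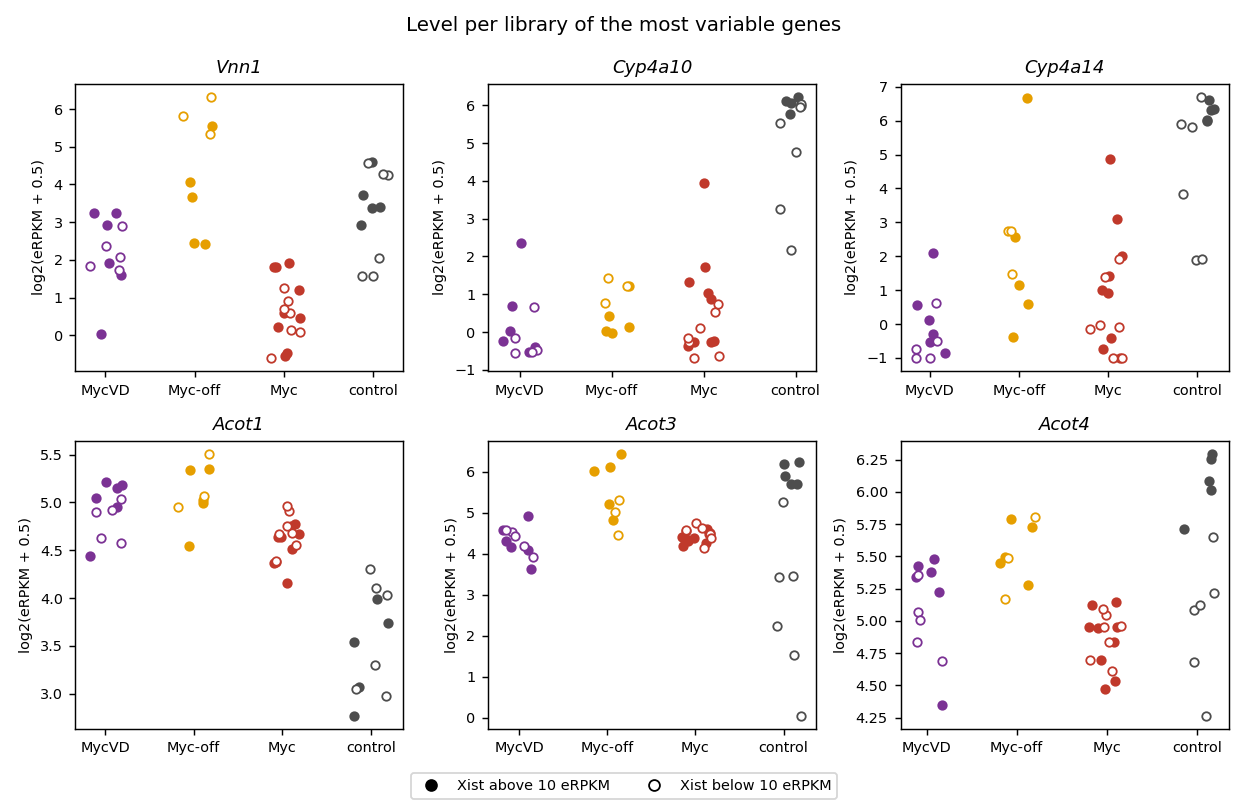
Level per library, as log2(eRPKM + 0.5), of 6 variable genes in MycVD, Myc-off, Myc and control libraries; filled points have Xist above 10 eRPKM. The 3 low controls lie below the other controls for Cyp4a10 and Cyp4a14, and the filled control points lie above the open ones for Acot3.

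Of other genes of beta-oxidation and ketone metabolism, 41 were tested and 33 fell and 5 rose in Myc tumours against control livers, where 29.7% of all genes fell and 50.4% rose. In Myc-off against Myc tumours 26 rose and 2 fell (30 and 1 without the low-Gapdh libraries), where 22.8% of all genes rose and 28% fell. The largest rises in Myc tumours were Cpt1b, the muscle-type entry enzyme, at 37.3 ± 4.88 eRPKM in Myc tumours and 2.38 ± 0.356 in control livers (3.72), and Cpt1c, a brain-type relative (2.47). The largest falls were Slc27a5, a bile acid and very long chain ligase (-4.28), and Acacb (-2.56), whose product makes the malonyl-CoA that inhibits Cpt1. Of the 50-base stretches of Cpt1b 93.0% occur in a read-through transcript with its neighbour Chkb, whose own level was 24.3 ± 2.02 eRPKM in Myc tumours and 26.2 ± 3.26 in control livers. Cpt1b averaged 41.0 ± 20.1 eRPKM in Myc-off tumours and was not called against Myc tumours (0.01, adjusted p = 0.98). Oxct1, which uses ketone bodies, is low in normal liver and is named here after its values were seen, rose to 23.4 ± 2.20 eRPKM in Myc tumours, against 4.07 ± 0.976 in control livers. In Myc-off against Myc tumours Oxct1 was not called (0.23, adjusted p = 0.39).

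**Figure D5:**
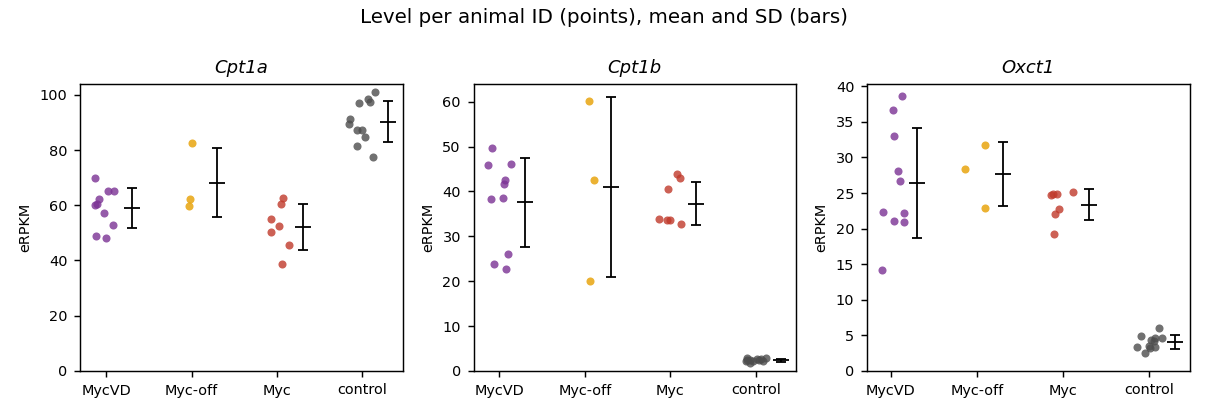
Level (eRPKM, y axes starting at 0) of Cpt1a, Cpt1b and Oxct1 per animal ID (points) with group mean and SD (bars). Cpt1b and Oxct1 are higher in every tumour ID than in any control.

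Other reported targets and partners of Ppara numbered 38 tested, of which 23 fell and 10 rose in Myc tumours against control livers, and 15 rose and 9 fell in Myc-off against Myc tumours. Without the low-Gapdh libraries 22 fell and 9 rose in Myc tumours against control livers. The same shares of all genes apply, so the 9 that fell in Myc-off tumours are not above the 28% of all genes, nor the 10 that rose in Myc tumours above 50.4%. Cyp4f14 (-6.39) and Cyp4f15 (-5.80), omega-hydroxylases, fell furthest in Myc tumours, and Cyp4a12b (1.61) and the thioesterase Acot9 (0.99) rose most. In Myc-off tumours Cyp4a12a (3.23) and Vnn3 (3.14) rose most, and Ppargc1b (-1.66) and Angptl4 (-0.85) fell most. Of 19 peroxisome biogenesis genes, 13 fell and 4 rose in Myc tumours against control livers, and 7 rose (10 without the low-Gapdh libraries) and 5 fell in Myc-off against Myc tumours, the 5 being close to the share of all genes. Pex11g fell furthest in Myc tumours (-2.94) and rose most in Myc-off tumours (1.51). In MycVD against Myc tumours, 8 rose and 1 fell of the other beta-oxidation and ketone genes, 3 rose and 2 fell of the other Ppara genes, and 1 rose and 3 fell of the biogenesis genes. Without the low-Gapdh libraries these were 13 and 0, 7 and 3, and 3 and 5. The counts over all genes grew there too, from 895 and 1411 to 1590 and 2385. Over all genes 6.14% rose and 9.69% fell, so with all libraries the counts of the Ppara and biogenesis lists were near those of all genes. Against control livers, the first of these lists had 34 lower and 5 higher in MycVD tumours and 28 lower and 6 higher in Myc-off tumours, the Ppara list 22 lower and 9 higher in MycVD tumours and 17 lower and 4 higher in Myc-off tumours, and the biogenesis list 13 lower and 3 higher in MycVD tumours and 13 lower and 0 higher in Myc-off tumours. Of all genes 31.1% were lower and 49.2% higher in MycVD tumours, and 20.9% lower and 37.3% higher in Myc-off tumours.

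Markers of other cell types also moved between these pieces of tissue. In Myc tumours against control livers, 6 of 8 endothelial markers fell, with sums of 52.0 to 80.4 eRPKM in Myc tumours and 152 to 296 in control livers. Stellate cell markers had 4 lower and 2 higher of 8, macrophage markers 2 lower and 4 higher of 8, and cholangiocyte markers 2 lower of 6. Without the low-Gapdh libraries 3 stellate cell markers were higher and 1 cholangiocyte marker was lower. All 6 erythroid markers rose, and T and B cell markers had 2 higher and 1 lower of 5. Of all genes 29.7% fell and 50.4% rose, so the macrophage, cholangiocyte, and T and B cell counts were near or below these shares. Of 6 adipocyte markers Fabp4 alone passed the filter and rose (2.11), with Lep and Ucp1 at 0 in all controls and at most 0.0518 eRPKM in any Myc tumour ID. The part of these cells in the differences of the 35 genes was not tested.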

How the data were processed

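The authors deposited 1 table of eRPKM (RPKM over exons) for 46 libraries and 21671 genes. Per the labels' protocols, total RNA with an integrity number of at least 7.5 was depleted of ribosomal RNA and made into TruSeq RNA v2 libraries. Per the submitters' processing notes, TopHat2 2.0.8 and build mm9 were used, and no counting tool is named there. Depths of 3.25 to 12.6 megareads were recovered from the steps between low deposited RPKM values. An exon length that turns the values into whole reads was found for 19463 of the 21671 genes. Those lengths were chosen to give whole reads, so the 100% of their values within 0.001 of a whole read is no separate check. Highly expressed genes approach a ceiling of reads per kilobase, and a correction for it was tried as an alternative. It set the ceiling at 2400 reads per kilobase in every library. The highest value of a library lay between 1461 and 2182, so the correction may be too weak to show what the ceiling does. No libraries were duplicates.

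Libraries were averaged per animal ID (31 IDs, taken as animals, an assumption). Genes with at least 1 eRPKM in 3 IDs (14566) were kept, and 7105 were removed. limma 3.58.1 in R 4.3.3 fitted log2(eRPKM + 0.5) of all 4 groups with a mean-variance trend, and Benjamini-Hochberg adjusted p under 0.05 was called. The fit was tested on simulated data. Tables and figures used numpy 2.4.6, pandas 2.3.3 and matplotlib 3.10.9. All 35 genes passed the filter. Ppara, Cpt1a, Ehhadh and Bdh1 are given in every comparison, other members by call, and of each other list the 2 largest rises and falls. The marker lists covered hepatocytes, endothelial, macrophage, stellate, cholangiocyte, erythroid, adipocyte and T and B cells. Members and lists were chosen with earlier results of these data known. Shared 50-base stretches were counted in GENCODE transcripts. Alternatives covered scaling, pseudocount, filter, depth, library weights and leaving out each ID.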

Additional observations from a re-analysis of the deposited data

Results flagged for a closer look

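Each of the 35 genes was checked in MycVD tumours and Myc tumours, 70 groups in all, for an ID far from the others. Chance flags about 1 in 20 such groups, and 2 were found. Acaa1a, a peroxisomal thiolase, was lowest in MycVD tumour ID134664, at 23.2 eRPKM, with the next ID at 29.1. Vnn1, the pantetheinase, was lowest in MycVD tumour ID133764, at 0.530 eRPKM, with the next ID at 2.56. The cause of either value was not tested.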

How the results depend on the processing

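Of 117 gene differences called, 88 kept their direction and call in every alternative, and of 3690 values 116 lost the call and 3 changed sign. Those 3 arose under quantile normalisation: Hadhb (0.062) and Eci1 (0.064) in Myc tumours and Acadm (0.033) in MycVD tumours, each against control livers. Quantile normalisation moved the members' median to -0.76 in Myc, -0.57 in MycVD and -0.18 in Myc-off tumours against control livers, and median-ratio scaling moved it to -1.25, -0.98 and -0.59. The cause was not tested. Depth as a covariate gave a median of -0.78 in Myc tumours against control livers. In Myc-off against Myc tumours it gave a median of 0.39 and 16 members higher. In MycVD against Myc tumours it gave 3 higher and 0 lower, quantile normalisation 0 lower, array weights 13 higher, and leaving out the low-Gapdh libraries (added after seeing the data) 2 lower. Array weights also raised the counts over all genes, to 1837 higher and 2933 lower. In Myc-off tumours against control livers the members higher were 5 with quantile normalisation, 5 with every library as its own sample, 4 with ID as a random block and 4 with voom on the recovered reads (added after seeing the data).

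Leaving out single IDs gave 30 to 31 members lower, 1 higher and medians of -1.03 to -0.96 in Myc tumours against control livers. It gave 22 to 27 higher, 0 lower and medians of 0.48 to 0.62 in Myc-off against Myc tumours, and 5 to 12 higher, 0 to 1 lower and medians of 0.17 to 0.25 in MycVD against Myc tumours. Against control livers, MycVD tumours had 28 to 31 lower, 1 higher and medians of -0.81 to -0.73, and Myc-off tumours 16 to 23 lower, 2 to 3 higher and medians of -0.44 to -0.33. No paired analysis was possible because the labels pair no samples across groups.

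Depth limits the lowest genes: Cyp4a14 had 0 reads in 5 libraries. Myc-off tumours came from 3 IDs. Sex, age and collection date were not in the labels used here, ID numbers of the 3 tumour groups do not overlap, and the table keeps no strand, so antisense reads cannot be told apart.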

Other observations

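Tumours of the same animal ID also differed from each other. The median SD of the 35 genes on the log2 scale was 0.271 within and 0.172 between IDs in Myc-off tumours, and 0.198 within and 0.215 between IDs in Myc tumours, where the SD within IDs is of single tumours and that between IDs of ID means, so the 2 are not on equal terms. In Myc-off tumours Vnn1 had 46.8 and 16.2 eRPKM in tumours A and B of ID151964, and Cyp4a14 had 5.37 and 101 in the same tumours.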
